A study of Mus musculus with 21 samples.

Results

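Immediate-early and AP-1 genes were described in splenic CD4+ and CD8+ T cells of mice raised in an enriched environment (EE) or a standard environment (SE). The genes were chosen by name and comprised Fos, Fosb, Jun, Junb, Jund, Egr1, Ier2, Dusp1, Nr4a1 and Zfp36. The table of normalized counts held 9 of these 10 genes among 12994 genes. Fosb was not in it, so its expression is not analysed here.

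The study examined the part of CD4+ T cells in how EE shapes the hippocampus, and whether their transcripts differ between EE and SE. Female C57BL6/J mice entered their housing 4 weeks after birth and stayed in it for 4 weeks, EE being large cages with many animals, running wheels, toys and tunnels, and SE being smaller cages without objects. Transcripts were counted by molecule with unique molecular identifiers (UMIs), short random tags that let copies of one molecule be counted once. The 21 samples came from 12 mice and formed 4 groups, CD4+ T cells from EE mice (n = 6) and SE mice (n = 5), and CD8+ T cells from EE mice (n = 6) and SE mice (n = 4). Both populations were available from 9 mice, 6 in EE and 3 in SE. The animals of each environment came from the same cage according to the labels, so cage and environment cannot be told apart.

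Immediate-early genes are transcribed within minutes of a stimulus, without need for new protein. In T cells, engagement of the antigen receptor switches them on through MAP kinases and calcium signals. Fos and Jun proteins pair into the AP-1 transcription factor, while Dusp1 and Zfp36 belong to the brakes that the same signals switch on.

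The samples held between 145546 and 221454 molecules. The median was 164056.5 in CD4+ EE samples and 176086 in CD4+ SE samples, against 191906.5 in CD8+ EE samples and 194488 in CD8+ SE samples. Values are normalized counts, molecules divided by a size factor for each sample, so that 1 molecule was worth between 0.791 and 1.26 normalized counts. A count of 0 in a sample allows up to 3 molecules, and this limit covers counting error only. In bulk samples fewer cells expressing a gene and less RNA per cell cannot be told apart.

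The labels of the populations were checked against T-cell genes. Cd4, the coreceptor of helper T cells, had a mean of 58.4 ± 12.0 (SD) over the 11 CD4+ samples, against 0.374 ± 0.484 over the 10 CD8+ samples. Cd8a was at 0.784 ± 1.06 and 98.4 ± 14.5 in the same order, and Cd8b1 at 3.62 ± 2.27 and 205 ± 20.3. The CD3 chains, shared by both populations, had like levels in both, with Cd3d at 188 ± 28.4 and 193 ± 14.3. The lowest Cd4 of a CD4+ sample was 42.7 and the highest of a CD8+ sample 0.966, and for Cd8a the lowest of a CD8+ sample was 72.5 and the highest of a CD4+ sample 3.09, so each sample carried the coreceptor of its label.

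RNA of other cells was also measured. By the study's methods, red blood cells were lysed and the sort took cells with CD45 and CD3 and without CD11b, steps that would remove B cells, myeloid cells and red cells. All 14 B-cell markers were in the table, none was at 0 in every sample, and Cd74, the invariant chain of MHC class II, was the most abundant. In CD4+ EE samples their summed normalized counts had a lowest value of 238, a median of 304 and a highest value of 363. In CD4+ SE samples the sums were 41.2 in replicate 1, 505 in replicate 3, 304 in replicate 4, 227 in replicate 5 and 383 in replicate 6. SE replicates 1 and 3 thus stood below and above every other CD4+ sample. In CD8+ samples the sums were between 35.0 and 61.7 in all but EE replicate 6, at 118. Of the erythroid and platelet markers 6 of 8 were in the table, Hba.a1, a haemoglobin chain, being the most abundant. Their sum was 581 in CD8+ EE replicate 6 and 1033 in CD8+ SE replicate 3, against 26.7 or less in each other sample. Myeloid markers, 6 of 12 in the table with Cst3 the most abundant, summed to between 12.3 and 62.2, with the highest values in CD4+ SE replicate 3 and, at 59.0, in CD4+ EE replicate 4. Itgam, Cd14, Adgre1 and Itgax, which define myeloid cells, were not in the table. NK-cell markers, 6 of 8 in the table with Nkg7 the most abundant, summed to between 3.09 and 33.4 in CD4+ samples and between 133 and 178 in CD8+ samples. Nkg7 and Eomes of this list are also expressed by CD8+ T cells. The part of other cells in the values of the immediate-early genes was not tested.

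Of the 9 genes, Ier2, Jund, Junb, Zfp36 and Egr1 gave at least 1 molecule in each of the 21 samples. Nr4a1 was detected in 19 samples, Jun and Dusp1 in 18 samples each, and Fos in 9 samples. A gene entered a comparison when its mean was above 2 normalized counts over the samples of that comparison. This filter left out Fos, Jun and Dusp1 in CD4+ T cells, Fos in CD8+ T cells, and Fos and Dusp1 where both populations were compared. The genes left out have values only.

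Fos (ENSMUSG00000021250, 12:85473890-85477273 on the plus strand of GRCm38) encodes a partner of the JUN proteins that is induced rapidly and briefly. It was the least detected of the 9 genes, with 20 molecules over all samples and at most 7 in one of them. Its mean was 0.704 ± 0.893 (SD, n = 6) in CD4+ EE samples, 0.595 ± 0.909 (SD, n = 5) in CD4+ SE samples, 0.781 ± 1.49 (SD, n = 6) in CD8+ EE samples and 1.87 ± 3.13 (SD, n = 4) in CD8+ SE samples. The highest value of 6.52, in CD8+ SE replicate 2, made up most of the last mean, since the other 3 samples of that group had 0, 0 and 0.961. Fos was under the filter in each comparison, so no difference is given.

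Jun (ENSMUSG00000052684, 4:95049034-95052222, minus strand) encodes the AP-1 subunit that can pair with itself or with FOS proteins. Its mean was 1.55 ± 1.13 (SD, n = 6) and 1.54 ± 0.774 (SD, n = 5) in CD4+ T cells of EE and SE mice. Among CD8+ samples it was 3.64 ± 3.12 (SD) with EE (n = 6), against 1.63 ± 1.61 with SE (n = 4). In CD8+ EE samples the lowest value was 0, the median 2.98 and the highest 9.40, in replicate 3. The 4 CD8+ SE samples had 0.856, 3.72, 0 and 1.92, and the groups overlapped. The log2 difference, EE minus SE, was 0.74 (standard error 0.58, 95% interval -0.42 to 1.91) with an adjusted p of 0.963 (limma). Jun passed the filter here with an SE mean under 2, and without a filter the difference was the same. It was 1.14 with edgeR and 1.18 with DESeq2, and leaving out 1 sample gave between 0.35, without SE replicate 3, and 1.13, without EE replicate 2.

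Junb (ENSMUSG00000052837, 8:84974484-84978718, minus strand) encodes a JUN protein with weaker activating power than JUN itself. In CD4+ T cells its values in EE had a lowest of 23.4, a median of 29.6 and a highest of 44.3. The 5 SE samples had 28.8, 54.0, 22.9, 23.7 and 15.8 in replicates 1, 3, 4, 5 and 6. The SE samples thus held both the highest and the lowest value, with SE replicate 3 alone above all EE samples. Among CD8+ samples the EE values ran from 14.6 to 35.3 around a median of 23.5, and the 4 SE samples had 31.7, 21.4, 29.1 and 26.0, all inside the EE range. The log2 difference, EE minus SE, was 0.20 (standard error 0.23, 95% interval -0.26 to 0.66, limma adjusted p 0.933) in CD4+ T cells and -0.13 (standard error 0.22, 95% interval -0.58 to 0.32, adjusted p 0.992) in CD8+ T cells.

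Jund (ENSMUSG00000071076, 8:70698949-70700616, plus strand) encodes the JUN protein that is present in most resting cells. In CD4+ EE samples its lowest value was 20.3, its median 35.4 and its highest 54.2, and the 5 SE samples had 39.1, 30.2, 41.1, 32.3 and 33.8. All SE values lay inside the EE range, which was wider. Among CD8+ samples the EE values ran from 20.7 to 37.7 with a median of 27.7, and the SE samples had 30.0, 24.2, 27.4 and 36.5. The log2 difference between EE and SE was -0.00 (95% interval -0.43 to 0.42, limma adjusted p 0.998) in CD4+ T cells and -0.08 (95% interval -0.51 to 0.34, adjusted p 0.992) in CD8+ T cells. Between populations Jund had a higher mean level in CD4+ T cells, with 5 of 11 CD4+ samples above and 1 below all CD8+ samples. That log2 difference was 0.30 (standard error 0.15, 95% interval -0.01 to 0.60), and it did not pass the test with an adjusted p of 0.355 (limma).

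Egr1 (ENSMUSG00000038418, 18:34859823-34864984, plus strand) encodes a zinc-finger transcription factor induced by MAP kinase signals. In CD8+ T cells the EE samples had a lowest value of 0.791, a median of 4.28 and a highest of 7.73. The 4 SE samples had 6.85, 13.0, 7.95 and 2.88 in replicates 1, 2, 3 and 6. SE replicates 2 and 3 were above every EE sample and 2 EE samples were below every SE sample, while the middle of both groups overlapped. The mean was 4.00 ± 2.88 (SD) over the 6 EE samples, against 7.68 ± 4.18 over the 4 SE samples, with a log2 difference of -0.91 (standard error 0.47, 95% interval -1.84 to 0.03) and an adjusted p of 0.952 (limma). In CD4+ T cells the EE values ran from 2.15 to 8.3 with a median of 5.73. The 5 SE samples had 1.03, 17.4, 6.40, 5.70 and 6.76 in replicates 1, 3, 4, 5 and 6. SE held the lowest and the highest CD4+ value, in the samples that also had the lowest and the highest B-cell sum. The log2 difference was -0.14 (95% interval -1.03 to 0.74, limma adjusted p 0.983), and it was 0.22 without SE replicate 3.

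Nr4a1 (ENSMUSG00000023034, 15:101254269-101274795, plus strand) encodes the nuclear receptor NUR77, which antigen receptor signals induce in T cells. In CD4+ EE samples the lowest value was 0.914, the median 2.45 and the highest 5.57. The SE samples had 1.03 in replicate 1, 11.9 in replicate 3, 4.57 in replicate 4, 14.2 in replicate 5 and 13.5 in replicate 6. SE replicates 3, 5 and 6 were above every EE sample, no EE sample reached the SE median of 11.9, and SE replicates 1 and 4 lay below the highest EE sample, so the groups overlapped. SE replicate 1 was also the CD4+ sample with the lowest B-cell sum, 41.2. SE replicates 3 and 6 had B-cell sums of 505 and 383, above every EE sample, and SE replicate 5 had 227, below every EE sample. The part of B-cell RNA in the result was not tested.

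The mean of Nr4a1 was 2.82 ± 1.80 (SD, n = 6) in CD4+ EE samples and 9.05 ± 5.90 (SD, n = 5) in CD4+ SE samples. The log2 difference, EE minus SE, was -1.20 (standard error 0.49, 95% interval -2.18 to -0.21). The unadjusted p of 0.0184 from limma became 0.780 after Benjamini-Hochberg adjustment over the 7939 genes tested, so the difference did not pass the test. The count-based tests gave -1.65 (edgeR, adjusted p 0.556) and -1.68 (DESeq2, adjusted p 0.999). Leaving out 1 sample at a time gave between -1.69, without SE replicate 1, and -0.96, without SE replicate 5, with adjusted p from 0.546 to 0.953.

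In CD8+ T cells Nr4a1 was low in both environments. The EE samples had a lowest value of 0, a median of 0.860 and a highest of 11.3, in replicate 3, and the next value was 2.58. The 4 SE samples had 1.71, 3.72, 1.77 and 1.92. EE replicate 3 stood above every CD8+ sample, and 4 of the 6 EE samples stood below every SE sample. The log2 difference was -0.47 (standard error 0.61, 95% interval -1.70 to 0.77, limma adjusted p 0.987), and edgeR gave 0.18 and DESeq2 0.19, the opposite sign. The test of whether the environment difference itself differed between CD4+ and CD8+ T cells gave -0.73 (95% interval -2.30 to 0.84) for Nr4a1 with an adjusted p of 0.994 (limma). It was -1.82 with edgeR and -1.87 with DESeq2, and leaving out 1 sample gave between -1.22, without CD4+ SE replicate 1, and -0.25, without CD8+ EE replicate 3.

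Between populations, the mean of Nr4a1 was 5.65 ± 5.11 (SD) over the 11 CD4+ samples, against 2.47 ± 3.30 over the 10 CD8+ samples. The log2 difference, CD4+ minus CD8+ as the mean over both environments, was 0.96 (standard error 0.39, 95% interval 0.17 to 1.74). It was 0.59 in the EE samples alone, with means of 2.82 and 2.60, and 1.32 in the SE samples alone, with means of 9.05 and 2.28. It did not pass the test, with an unadjusted p of 0.0179 and an adjusted p of 0.199 (limma). Of the 11 CD4+ samples 8 were above the CD8+ median of 1.74. The smallest adjusted p when 1 sample was left out was 0.0579, without CD4+ SE replicate 1, and the largest was 0.332.

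**Figure D1:**
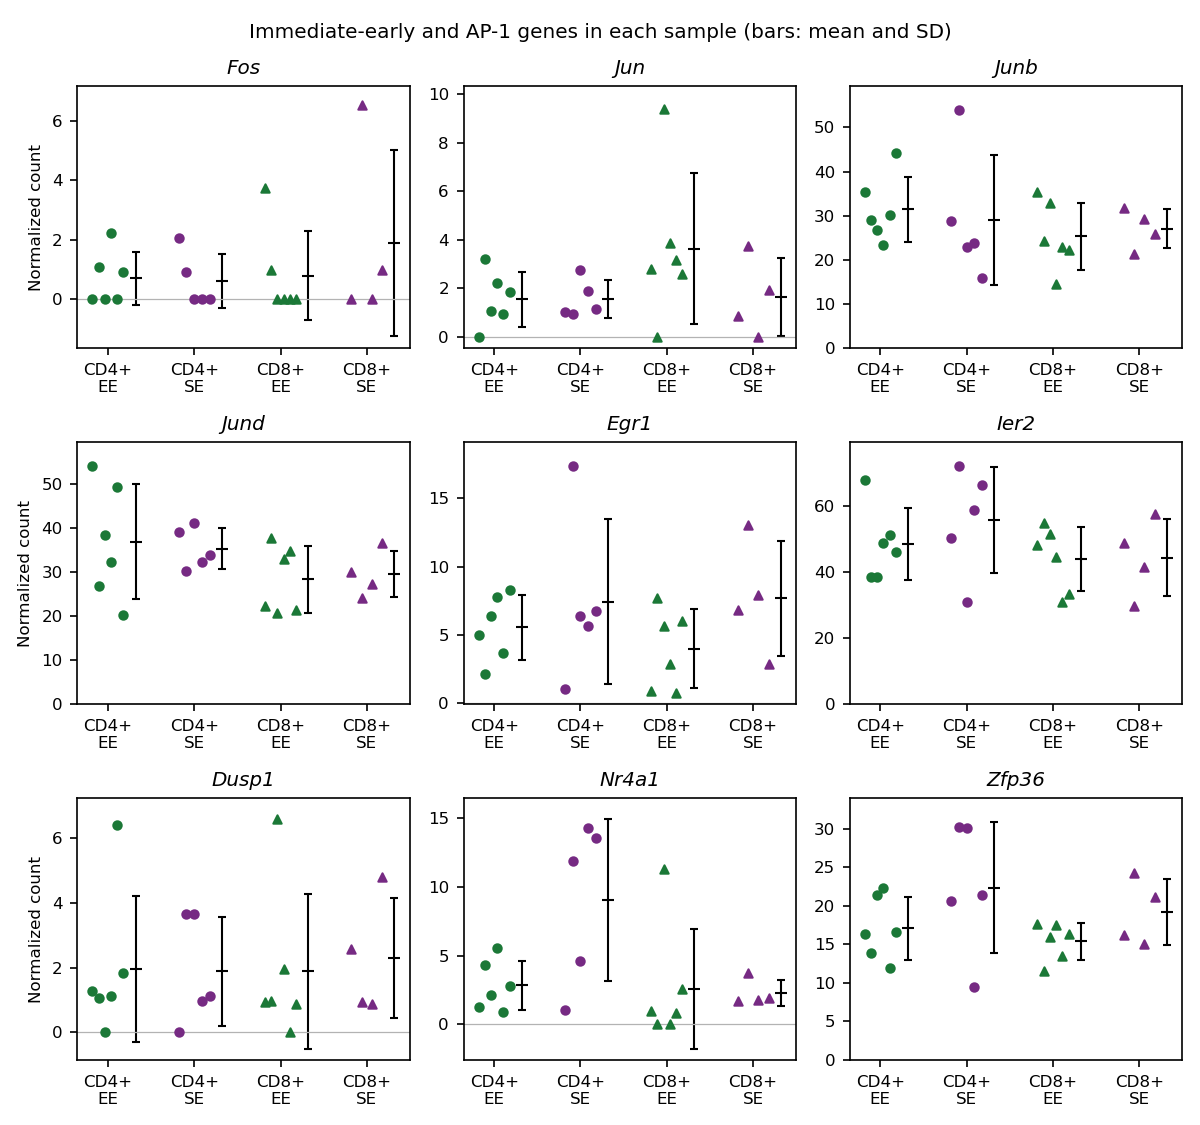
Normalized counts of the 9 genes in each sample, 1 panel a gene, with the 4 groups on the horizontal axis, points for samples and lines for the mean and SD. Nr4a1 was above 11 in 3 of 5 CD4+ SE samples and at most 5.57 in the 6 CD4+ EE samples, while the groups overlapped for every gene.

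Ier2 (ENSMUSG00000053560, 8:84661331-84662852, minus strand) encodes a small nuclear protein of the immediate-early class. In CD4+ EE samples the lowest value was 38.5, the median 47.6 and the highest 68.0, and the SE samples had 50.4, 72.3, 31.1, 58.9 and 66.4. Only 1 of 6 EE samples was above the SE median of 58.9, but SE replicate 4 was below all of them. CD8+ EE samples ran from 30.8 to 55.1 with a median of 46.5, and SE had 48.8, 29.8, 41.5 and 57.7. The log2 difference between EE and SE was -0.17 (standard error 0.19, 95% interval -0.55 to 0.21, limma adjusted p 0.931) in CD4+ and -0.01 (standard error 0.19, 95% interval -0.38 to 0.37, adjusted p 0.999) in CD8+ T cells. Between populations it was 0.22 (95% interval -0.05 to 0.50, adjusted p 0.478), with 4 of 11 CD4+ samples above all CD8+ samples and 2 of 10 CD8+ samples below all CD4+ samples.

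Dusp1 (ENSMUSG00000024190, 17:26505590-26562128, minus strand) encodes a phosphatase that switches MAP kinases off. It was low in all groups, with means of 1.95 ± 2.26 (SD, n = 6) and 1.88 ± 1.68 (SD, n = 5) in CD4+ and 1.88 ± 2.38 (SD, n = 6) and 2.30 ± 1.85 (SD, n = 4) in CD8+ T cells of EE and SE mice. At most 7 molecules were counted in a sample. The highest values, 6.40 in CD4+ EE replicate 5 and 6.58 in CD8+ EE replicate 3, stood apart from the rest of their groups. Where it passed the filter, in CD8+ T cells, with an EE mean under 2, the log2 difference was -0.34 (standard error 0.60, 95% interval -1.55 to 0.86, limma adjusted p 0.992).

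Zfp36 (ENSMUSG00000044786, 7:28376784-28380253, minus strand) encodes tristetraprolin, which binds AU-rich mRNAs and speeds their decay. In CD4+ EE samples the lowest value was 11.9, the median 16.5 and the highest 22.3, and the SE samples had 20.6, 30.2, 30.2, 9.50 and 21.4. SE replicates 3 and 4 were above every EE sample and SE replicate 5 was below them all. CD8+ EE samples ran from 11.6 to 17.7 with a median of 16.1, and SE had 16.3, 24.2, 15.0 and 21.1. No CD8+ EE sample was above the SE median of 18.7, and the groups overlapped. The log2 difference was -0.30 (standard error 0.26, 95% interval -0.83 to 0.23, limma adjusted p 0.915) in CD4+ and -0.29 (standard error 0.25, 95% interval -0.79 to 0.22, adjusted p 0.963) in CD8+ T cells.

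The first comparison over all genes asked which genes differ between EE and SE in CD4+ T cells. Of 7939 genes tested 1 passed an adjusted p of 0.05 (0.0126% of the genes), S100a6, named after its values were seen, and 0 of the 6 immediate-early genes tested did. That count was between 0 and 3 when 1 sample was left out. At an unadjusted p under 0.05 there were 462 genes (5.82%), among them 1 of the 6, Nr4a1. By edgeR 2 genes and by DESeq2 1 gene passed, with none of the 6 among them. Values of EE and SE did not overlap for 36 genes (0.453%) and for 0 of the 6. Of the 6 genes Junb was higher in EE and 5 were lower, with a median log2 difference of -0.16, while of all genes 3977 were higher and 3962 lower. The sign of Jund, whose difference was near 0, turned in edgeR and DESeq2, and those of Jund and Egr1 turned when single samples were left out.

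The same question in CD8+ T cells gave 0 of 7840 genes at an adjusted p under 0.05 with limma (0%), 0 with edgeR and 0 with DESeq2. At an unadjusted p under 0.05 there were 413 genes (5.27%) and 0 of the 8 immediate-early genes tested. For 83 genes (1.06%) and 0 of the 8 the groups did not overlap. Jun was higher in EE and the other 7 were lower, with a median log2 difference of -0.21, beside 3844 genes higher and 3996 lower among all genes. Jun and Dusp1 are in these counts with 1 group mean above 2 and 1 below, so whether they are counted depends on their higher group. With edgeR and DESeq2 the sign turned for Nr4a1 alone among these 8, and those of Junb, Jund and Ier2, all near 0, turned when single samples were left out.

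The comparison of CD4+ with CD8+ T cells asked whether the populations differ in these genes. Of 7938 genes 349 passed an adjusted p of 0.05 (4.4%), 185 higher and 164 lower in CD4+ T cells, and 0 of the 7 immediate-early genes tested did. At an unadjusted p under 0.05 there were 1176 genes (14.8%) and 1 of the 7, Nr4a1. For 69 genes (0.869%) and 0 of the 7 the populations did not overlap. All but Jun had a higher mean in CD4+ T cells, 6 of 7, with a median log2 difference of 0.17, beside 3885 genes higher and 4053 lower among all genes. Jun passed the filter here with a CD4+ mean under 2, and fell under it without CD8+ EE replicate 3. In the SE samples alone Junb and Egr1 had the opposite sign, as did Egr1 without CD4+ SE replicate 3 (-0.0130) and without CD8+ SE replicate 6 (-0.00287). The 10 B-cell markers tested were also all higher in CD4+ T cells, and their part in these differences was not tested.

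The difference of the environment effects between the populations gave 0 of 7938 genes at an adjusted p under 0.05 with limma (0%), 0 with edgeR and 0 with DESeq2, and 393 genes at an unadjusted p under 0.05 (4.95%), with 0 of the 7 immediate-early genes among either. Jun had -0.83 (95% interval -2.38 to 0.72), Egr1 0.76 (95% interval -0.58 to 2.11) and Junb 0.33 (95% interval -0.34 to 0.99). Leaving out 1 sample moved Jun to between -1.21 and -0.44, Egr1 to between 0.33 and 1.12, and Junb to between 0.15 and 0.58. Jun entered this fit with a mean of 3.64 in CD8+ EE samples and a mean under 2 in each other group. It fell under the filter without CD8+ EE replicate 3. The intervals of all 7 genes held 0.

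**Figure D2:**
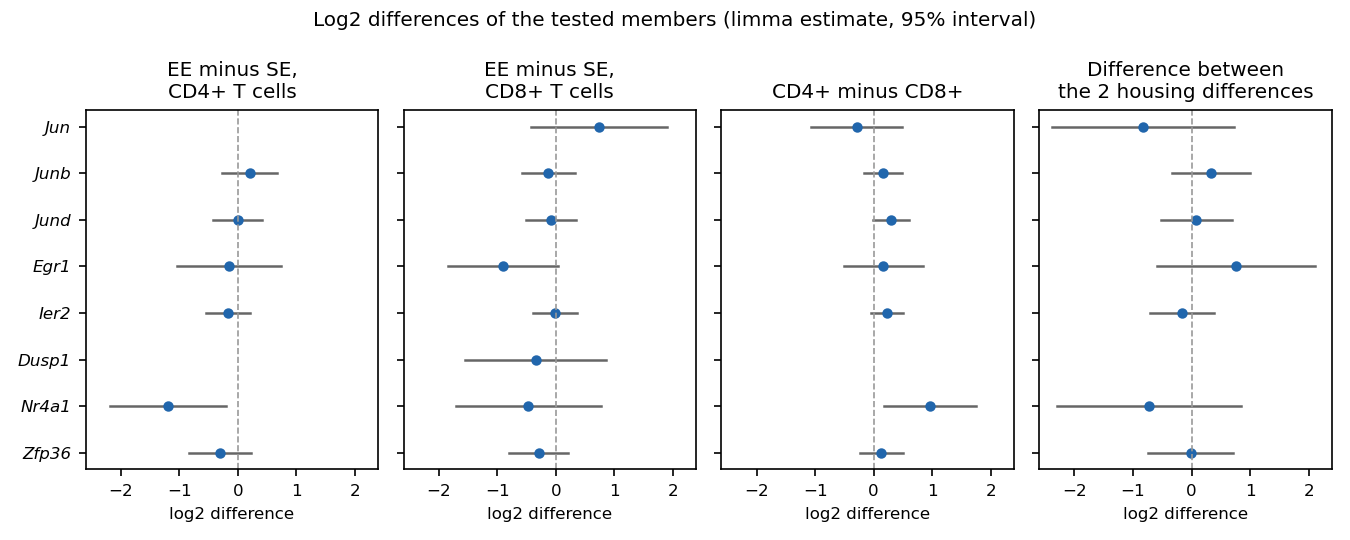
Log2 differences with 95% intervals from limma for the genes that passed the filter, EE minus SE in each population, CD4+ minus CD8+, and the difference between both housing differences, with a dashed line at 0. For Nr4a1 the interval ran from -2.18 to -0.21 in CD4+ T cells (EE minus SE) and from 0.17 to 1.74 between populations, neither with an adjusted p under 0.05, and all other intervals held 0.

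The samples did not order alike across the genes. After the group mean was taken off, 12 of the 21 pairs among the 7 genes with a mean above 2 had a positive Pearson r over the 21 samples, with a median of 0.06, against 9 of 21 (median -0.0186) in CD4+ samples and 7 of 21 (median -0.13) in CD8+ samples alone. Over all 21 samples r ran from -0.63 between Jund and Nr4a1 to 0.55 between Jun and Nr4a1. CD4+ SE replicate 3 was the sample with the highest Junb, Egr1, Ier2 and Zfp36 of all 21, and its sum over the 9 genes was 221, where the next sample had 181. That sample also had the highest B-cell sum, 505, and the highest myeloid sum, 62.2, of all 21, and their part in its values was not tested. The high Nr4a1 of SE replicates 5 and 6 came with Junb of 23.7 and 15.8, at or below the SE median.

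It was then asked whether the CD4+ and CD8+ samples of one mouse move together. For each gene the group mean was taken off the log2 values, and the remainders of both populations were correlated over the 9 mice, with an exact two-sided permutation of mice within each environment (4320 arrangements). Over the 7348 genes tested r had a median of 0.0260 and quartiles of -0.244 and 0.310. No gene passed an adjusted p of 0.05 in this test (0%), and 373 genes had an unadjusted p under 0.05 (5.08%), with 0 of the 6 immediate-early genes among them. By Spearman's rho 0 genes passed, with 337 at an unadjusted p under 0.05. The smallest p that these arrangements give is 0.000231, and 35 genes would have to reach it for an adjusted p under 0.05, whereas 1 gene reached it, Vamp1, named after its values were seen.

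Both populations were on the same side of their group mean in 6 of 9 mice for Junb, in 3 for Jund, and in 5 for each of Egr1, Ier2, Nr4a1 and Zfp36. The r of Junb was 0.26 (exact permutation p 0.329, adjusted 0.996 over the 7348 genes) and its rho 0.43 (exact p 0.269, adjusted 1), with r 0.33 without the 2 mice farthest from the median, SE3 and SE6. That removal leaves a single SE mouse, whose remainder is 0, so it equals the value of the 6 EE mice alone. Leaving out 1 mouse gave between 0.0432 and 0.37 for Junb. Zfp36 had r 0.33 (exact p 0.419, adjusted 0.996) and rho 0.35 (exact p 0.366, adjusted 1), and r 0.05 without its 2 farthest mice, EE4 and EE5. Single mice moved it both ways, to 0.17 without EE2, 0.64 without SE3 and 0.54 without SE6, and in the 6 EE mice alone r was 0.70 (exact p 0.139, adjusted 0.946). Both were positive and neither passed the test.

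Ier2 had r -0.25 (exact p 0.573, adjusted 0.996) and rho -0.37 (exact p 0.370, adjusted 1), with -0.51 without its 2 farthest mice, and -0.60 without mouse EE1 to -0.0606 without mouse EE2 when 1 was left out. Nr4a1 had r -0.18 (exact p 0.559, adjusted 0.996) and rho 0 (exact p 1, adjusted 1), with -0.55 without its 2 farthest mice, and -0.35 without mouse SE1 to -0.0269 without mouse EE4 when 1 was left out. In mouse EE3 Nr4a1 was at 2.14 in CD4+ and 11.3 in CD8+ T cells, whereas in mouse SE6 it was at 13.5 and 1.92 and in mouse SE3 at 11.9 and 1.77. A high Nr4a1 in one population of these mice thus came without a high value in the other.

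Egr1 had r 0.02 (exact p 0.954, adjusted 1.00) and rho 0.20 (exact p 0.580, adjusted 1), and the removal of its 2 farthest mice, SE1 and SE3, again equals the 6 EE mice alone, at 0.02. Jund had r 0.01 (exact p 0.978, adjusted 1.00) and rho -0.05 (exact p 0.929, adjusted 1), with -0.18 without its 2 farthest mice. The mean over the 6 genes had r -0.06, given without a p, and -0.00 in the 6 EE mice alone. No shared deviation of the populations of one mouse was detected for these genes with 9 mice.

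In the 9 mice the CD4+ sample was the higher one in 7 mice for each of Egr1, Ier2, Nr4a1 and Zfp36, in 5 for Junb and Jund, and in 3 for Jun. The median difference, CD4+ minus CD8+, was 8.77 normalized counts for Ier2, 4.81 for Junb, 2.87 for Egr1, 2.82 for Jund, 2.35 for Zfp36 and -0.796 for Jun. For Nr4a1 it was 0.329, small beside the gaps of mice SE3 and SE6.

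**Figure D3:**
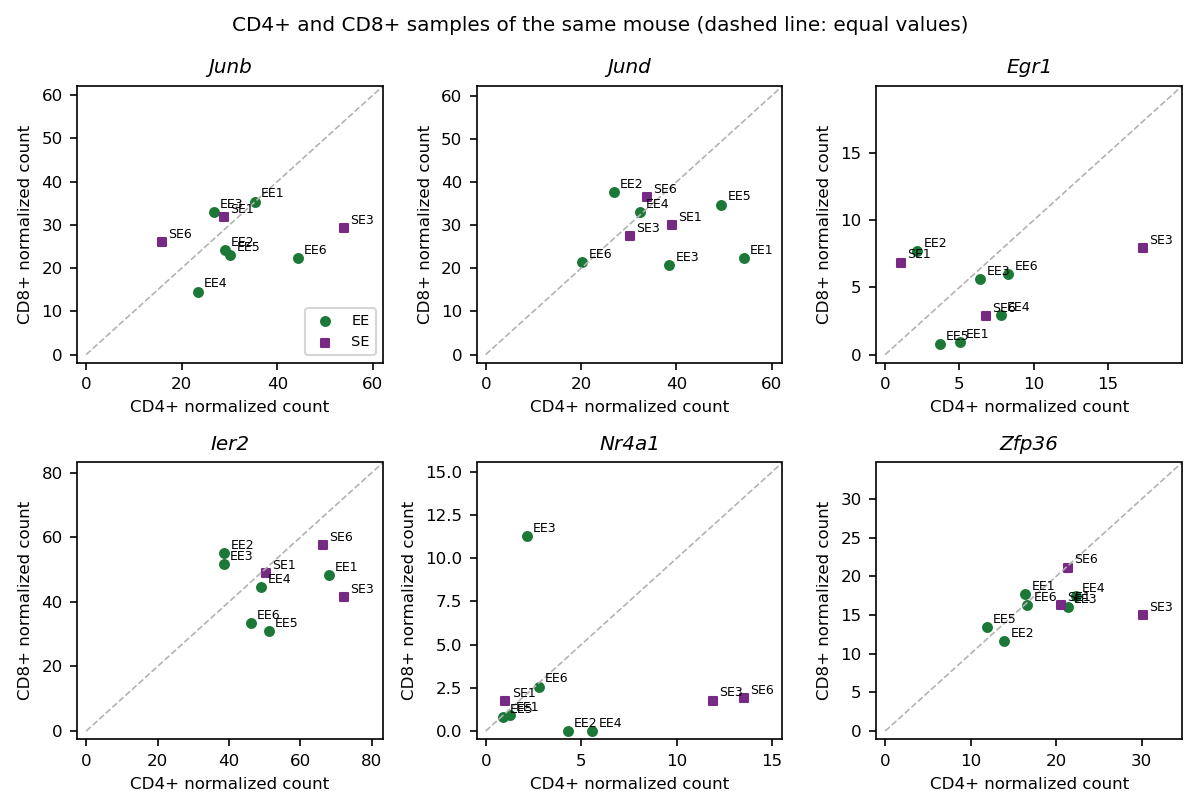
Normalized counts of the CD4+ sample (horizontal axis) and the CD8+ sample (vertical axis) of the 9 mice with both populations, 1 panel for each of 6 genes, coloured by environment, with a dashed line for equal values. For Nr4a1 mice SE3 and SE6 are high in CD4+ T cells, at 11.9 and 13.5, and mouse EE3 is high in CD8+ T cells, at 11.3.

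Other genes of the pathway were read from lists. Among all genes tested 50.1% were higher in EE in CD4+ T cells and 49.0% in CD8+ T cells, with 5.82% and 5.27% at an unadjusted p under 0.05, and between populations 48.9% were higher in CD4+ T cells and 4.4% passed. The median log2 difference of all genes lay between -0.00780 and 0.00118 in these comparisons. Of 18 other AP-1 family genes 12 were in the table, with Atf4 and Bach2 the most abundant. Their directions were even, 5 higher and 5 lower in EE among 10 tested in CD4+ T cells, and 6 higher and 4 lower in CD8+ T cells, with 0 at an adjusted p under 0.05 by limma in either. At an unadjusted p under 0.05 there were 0 in both. Maf, a large MAF protein of helper T cells, was higher in CD4+ T cells, at 10.4 ± 6.73 (SD, n = 11) against 0.268 ± 0.432 (SD, n = 10), with a log2 difference of 2.98 (standard error 0.36, limma adjusted p 2.48e-09). Maf passed the filter through its CD4+ samples, with a CD8+ mean under 2. It was 1 of 11 tested to pass between populations, where 6 were higher and 5 lower.

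Of 36 other immediate-early genes 32 were in the table, with Btg1, an antiproliferative factor, and Klf2, which keeps T cells quiescent, the most abundant. In CD4+ T cells 17 of 22 tested were higher in EE (median log2 difference 0.07), and in CD8+ T cells 15 of 21 (median 0.11). None passed an adjusted p of 0.05 by limma in either population. An unadjusted p under 0.05 was found for 2 in CD4+ T cells, Tnfaip3 (-1.36) and Ppp1r15a (0.93), and for 2 in CD8+ T cells, Tsc22d3 (0.38) and Klf6 (0.64), named after their values were seen. Btg1 was at 128 ± 12.5 (SD, n = 6) and 125 ± 6.29 (SD, n = 5) in CD4+ T cells of EE and SE mice, a log2 difference of 0.02. Klf2 was at 103 ± 9.62 (SD, n = 6) and 98.8 ± 8.25 (SD, n = 5), a log2 difference of 0.06. Between populations 11 of 21 were higher in CD4+ T cells and 0 passed, with 4 at an unadjusted p under 0.05, where all genes had 14.8%.

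All 31 kinases and factors upstream, among them the MAP kinases, RAS proteins, SRF and CREB, were in the table. In CD4+ T cells 13 of 29 tested were higher in EE (median log2 difference -0.07) and in CD8+ T cells 17 of 26 (median 0.07), with 0 at an adjusted p under 0.05 by limma. At an unadjusted p under 0.05 there were 1 in CD4+ T cells, Mapk14 (-0.59), and 2 in CD8+ T cells, Map3k1 (-1.69) and Rps6ka3 (-0.68), named after their values were seen. Rps6ka1, the kinase RSK1 that ERK activates, was higher in CD4+ T cells by a log2 difference of 0.54 (standard error 0.16, adjusted p 0.0336), 1 of 27 tested, where 4.4% of all genes passed. That call was lost in each environment alone, with adjusted p of 0.297 in EE and 0.366 in SE. It was also lost, with adjusted p from 0.0523 to 0.0812, when any 1 of CD4+ EE replicates 1 and 2, CD8+ EE replicates 3 and 4, CD4+ SE replicates 1 and 4, or CD8+ SE replicates 1 and 6 was left out. The log2 difference of Rps6ka1 was between 0.476 and 0.603 under the alternatives, and between 0.473 and 0.599 when 1 sample was left out. Map2k2 was the most abundant of the list.

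Of 12 heat-shock genes, which encode chaperones, 11 were in the table. Of 9 tested in CD8+ T cells 8 were higher in EE (median log2 difference 0.23), with 3 at an unadjusted p under 0.05, where all genes had 49.0% and 5.27%, and in CD4+ T cells 6 of 9 (median 0.03), with 1, Hsp90ab1 (0.27). None passed an adjusted p of 0.05 by limma. Hsp90ab1, the most abundant, was at 217 ± 23.5 (SD, n = 6) in CD8+ EE and 202 ± 23.9 (SD, n = 4) in CD8+ SE samples. Hspa8 was at 212 ± 37.9 (SD, n = 6) and 181 ± 30.9 (SD, n = 4), a log2 difference of 0.23. Between populations Hspe1, a mitochondrial cochaperonin, was lower in CD4+ T cells by a log2 difference of -0.47 (standard error 0.10, limma adjusted p 0.000361).

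Marker genes gave 0 calls between environments by limma. In the CD4+ minus CD8+ comparison 4 of 11 T-cell identity genes passed, Cd4 higher by 5.42, Cd8a at -5.97, Cd8b1 at -5.57 and Thy1 at -0.54 on the log2 scale. Of 10 B-cell markers tested 10 were higher in CD4+ T cells and 8 passed, led by Cd74 (4.91), H2.Ab1 (4.57), H2.Eb1 (4.30) and H2.Aa (4.2). Both NK-cell markers tested, Nkg7 (-3.59) and Eomes (-1.34), were lower. Eomes did not pass without CD8+ SE replicate 1 (-1.17, limma adjusted p 0.0966). Its mean was 0.855 in CD4+ and 3.84 in CD8+ samples, so it passed the filter through its higher population. Cd4, Cd8a, H2.Ab1, H2.Eb1 and H2.Aa likewise had a mean under 2 in their lower population. The myeloid marker tested, Cst3 (0.02), and the 4 erythroid and platelet markers tested did not pass. At an unadjusted p under 0.05 between environments there was 1 B-cell marker in CD4+ T cells, Cd74 (0.74). The 6 EE samples had a Cd74 mean of 119 ± 25.9 (SD), against 98.9 ± 71.3 for the 5 SE samples. The lowest Cd74 of a CD4+ sample, 10.3, was that of SE replicate 1, which also had the lowest B-cell sum. The SE mean of 98.9 includes that value of 10.3, and a Cd74 difference without SE replicate 1 is not given.

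Genes whose pattern was most like that of the abundant members were read from the same remainders. Over the 21 samples the mean of Junb, Jund, Ier2 and Zfp36 was correlated with each of 2723 other genes, as a description without a p, in which samples of one mouse share their source. The highest Pearson r were 0.70 for Hnrnpa1, 0.65 for X2310036O22Rik, 0.64 for Hnrnpl, 0.64 for Vps13a and 0.62 for Trappc6b. Psma4, Trappc1, Gbp4 and Ccnl1 followed at 0.61 each and Hcst at 0.60. The lowest were -0.76 for St6gal1, -0.69 for Ubn1, -0.69 for Tbrg1, -0.68 for Glyr1 and -0.68 for Trip12. The quartiles of all r were -0.18 and 0.18. For single genes the most alike were Ssr2 for Junb (0.75), Gtf2h5 for Jund (0.80), Akap8 for Ier2 (0.78) and Gas5 for Zfp36 (0.79), a different gene for each. Among the listed genes Zfp36l1, a paralog of Zfp36, had the highest r with the mean, 0.45, above 96.8% of genes. It was named after its values were seen, as the highest of the listed genes. In its list, the other immediate-early genes, 6 of 13 had an r above 0. The median of that list was -0.0101, and Btg1 was the lowest at -0.39.

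The promoters of 8 of the 10 named genes, Fosb among them, were in the RefSeq table of build GRCm38.p6, and 250 bases before the start in that table were searched on both strands. That start is not always the gene start of the annotation. The windows of Dusp1, Nr4a1 and Zfp36 lie inside the annotated gene, and that of Jund ends 1210 bases before it. The CRE core TGACG was in 5 of 8, beside 17.8% of 32851 promoters, and overlaps the full CRE TGACGTCA, which was in 1 of 8 beside 1.55%. The EGR site GCGNGGGCG was in 3 of 8 beside 4.70%, the CArG box in 1 of 8 beside 1.47%, and the AP-1 site TGANTCA in 0 of 8 beside 6.75%. Fosb has both a CRE core and an EGR site. The 8 windows held between 47.6% and 74.4% G and C, with all but Jund above the median of 52.4% over all promoters, so the shares are not matched for base content. These are matches of letters, not sites shown to be bound. The windows of Fos, Junb and Nr4a1 are shown to give the regulatory sequence of an AP-1 partner from each family and of the gene with the lowest p, with CRE cores and the EGR site in capitals. That of Fos is chr12:85473640-85473889 on the plus strand, with CRE cores starting 129 and 66 bases before the start. That of Junb is chr8:84978749-84978998 on the minus strand, with a CRE core 106 bases before the start. That of Nr4a1 is chr15:101266596-101266845 on the plus strand, with CRE cores 233, 213, 69 and 40 bases and an EGR site 60 bases before the start, all read on the other strand.
Fos: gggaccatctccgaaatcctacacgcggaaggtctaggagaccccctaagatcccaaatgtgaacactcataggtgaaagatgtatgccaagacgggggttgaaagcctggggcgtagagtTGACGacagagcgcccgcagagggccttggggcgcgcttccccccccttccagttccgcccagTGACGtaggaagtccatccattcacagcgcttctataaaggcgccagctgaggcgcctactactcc
Junb: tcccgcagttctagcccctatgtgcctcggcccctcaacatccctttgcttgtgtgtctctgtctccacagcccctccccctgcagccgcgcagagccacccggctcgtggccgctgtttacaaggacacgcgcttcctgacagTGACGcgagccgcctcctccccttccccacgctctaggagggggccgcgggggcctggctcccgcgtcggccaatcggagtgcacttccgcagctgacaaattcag
Nr4a1: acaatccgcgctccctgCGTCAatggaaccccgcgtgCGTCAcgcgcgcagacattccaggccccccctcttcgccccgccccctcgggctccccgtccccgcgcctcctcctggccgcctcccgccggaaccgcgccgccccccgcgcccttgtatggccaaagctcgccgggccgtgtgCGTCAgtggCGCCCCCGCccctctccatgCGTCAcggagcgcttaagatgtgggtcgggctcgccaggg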

How the data were processed

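Transcripts were measured as a signal per gene, deposited by the authors as molecule counts divided by a size factor per sample. According to the submitters' notes and the study's methods, the authors trimmed with cutadapt, aligned with STAR 2.4.0a to mm10, counted UMIs per Ensembl gene with the Drop-seq tools, left out samples of low purity and genes of low abundance, and normalized with DESeq2. Dividing the values of a sample by the smallest of them above 0 recovered whole molecules for 100% of the values, within 0.001. In 46 pairs of samples of one group the counts differed by more than counting allows (largest chi-square p 6e-119), so no sample was a copy of another.

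Genes with a mean above 2 in the samples of a fit were compared by limma 3.58.1 with trend on log2 of the normalized count plus 1, two-sided, with Benjamini-Hochberg adjustment over all genes tested and a threshold of 0.05. Fits within a population held its own samples, and fits across populations all 21. Correlations over the 9 mice used NumPy 2.4.6 and pandas 2.3.3, and the scripts ran in R 4.3.3 and Python 3.11.15. Alternatives were a pseudocount of 0.5, no filter, a mean above 10, equal totals, edgeR 4.0.16 and DESeq2 1.42.0 on the molecules, all 21 samples in one fit, replicate blocks, single environments, and leaving out each sample.

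The mouse of each sample comes from the animal number and environment in the labels. Sample titles also end in a further number, which is consecutive for both populations of each paired mouse except SE6. The pairing of SE6 rests on its animal number alone. Over genes with a mean above 10, the CD4+ and CD8+ samples of one mouse had r between -0.0637 and 0.0941 after group means were removed, and 2 of 9 were each other's best match. EE and SE animals that share a number are different mice; their r ran from -0.0557 to 0.0439 in CD4+ T cells, and from -0.0153 to 0.0221 in CD8+ T cells, with 0 best matches. The replicate block by mouse had a consensus correlation of 0.0257.

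The members and the other gene lists were chosen with earlier results of these data known, so no p is given over a list. Genes named beside the members are those of a list with an adjusted p under 0.05 in any comparison (the 4 with the smallest p if there were more), the 2 most abundant genes of a list, and those most and least like the members by correlation. Others were named after their values were seen, and the text says so for each. Gene symbols are printed as in the deposited table, where a dot stands for a hyphen. Positions are from GENCODE M21 on GRCm38 and promoters from RefSeq.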

Additional observations from a re-analysis of the deposited data

Results flagged for a closer look

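A sample was marked where its gap to the nearest other sample of its group was a large share of the group's range. This was checked in 36 groups of single-gene values and in 40 groups of list sums. The share of groups that chance would mark was not measured. Marked were 6 of the 36 and 4 of the 40.

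Fos was at 3.72 in CD8+ EE replicate 1, where the next sample had 0.966, and at 6.52 in CD8+ SE replicate 2, where the next had 0.961. Dusp1 was at 6.40 in CD4+ EE replicate 5, next to 1.84, and at 6.58 in CD8+ EE replicate 3, next to 1.94. Nr4a1 was at 11.3 in CD8+ EE replicate 3, next to 2.58, and at 3.72 in CD8+ SE replicate 2, next to 1.92. All 6 values rest on between 4 and 12 molecules, and CD8+ EE replicate 3 and CD8+ SE replicate 2 were each marked for 2 genes.

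The sum over the 9 immediate-early genes was 221 in CD4+ SE replicate 3, where the next SE sample had 159.9, and the same sample had the highest B-cell sum, 505, and the highest myeloid sum, 62.2, of all 21. The sum of B-cell markers was 118 in CD8+ EE replicate 6, next to 61.7. The sum of erythroid and platelet markers was 581 in CD8+ EE replicate 6, next to 6.51, and 1033 in CD8+ SE replicate 3, next to 8.65. In CD8+ EE replicate 6 the immediate-early sum was 105.6, the lowest of all samples, and in CD8+ SE replicate 3 it was 124, the lowest of its group. CD8+ EE replicate 5 had nearly the same immediate-early sum, 106.7, with an erythroid and platelet sum of 0. CD8+ SE replicate 2 had 127.6, with an erythroid and platelet sum of 0.931. The part of erythroid RNA in these sums was not tested.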

How the results depend on the processing

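No member passed an adjusted p of 0.05 under any alternative, so each kept its side of the threshold. Of 217 log2 differences of members under the alternatives, 207 kept their sign and 10 did not. In CD4+ T cells Jund became 0.0495 with edgeR and 0.0590 with DESeq2, and a replicate block by animal number gave 0.0695 for Jund and 0.0497 for Egr1. In CD8+ T cells the replicate block gave 0.0702 for Junb and 0.0989 for Ier2, and Nr4a1 was 0.18 with edgeR and 0.19 with DESeq2. Between populations, SE samples alone gave -0.00527 for Junb and -0.21 for Egr1. The replicate block drops animals without a partner of the same number, EE replicate 2 in CD4+ and EE replicates 4 and 5 in CD8+ T cells, and leaving out EE replicate 2 without a block gave the same 0.0695 and 0.0497. Each number kept in a block has an EE and an SE sample. The block estimate is therefore the plain mean difference of the animals kept, in CD8+ T cells as well. The cause of the changes with edgeR, DESeq2 and the SE samples alone was not tested.

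Leaving out 1 sample moved the sign in EE minus SE in CD4+ T cells for Jund (-0.13 to 0.15) and Egr1 (-0.58 to 0.22), and in CD8+ T cells for Junb (-0.23 to 0.0131), Jund (-0.17 to 0.0206) and Ier2 (-0.18 to 0.13). It did so between populations for Egr1 (-0.0130 to 0.38), and in the difference of differences for Jund (-0.0442 to 0.23), Ier2 (-0.36 to 0.0112) and Zfp36 (-0.28 to 0.11). Among genes whose sign held, the ranges in CD4+ T cells were 0.0201 to 0.45 for Junb, -0.36 to -0.0626 for Ier2 and -0.57 to -0.17 for Zfp36. In CD8+ T cells they were -1.24 to -0.63 for Egr1, -0.56 to -0.0994 for Dusp1, -0.59 to -0.22 for Nr4a1 and -0.39 to -0.17 for Zfp36, and between populations -0.48 to -0.11 for Jun, 0.0355 to 0.25 for Junb, 0.14 to 0.32 for Ier2 and 0.0655 to 0.26 for Zfp36. A mean under the filter left no value in CD8+ T cells for Nr4a1 without EE replicate 3 and for Dusp1 without EE replicate 3, SE replicate 1 or SE replicate 6. Jun has none in the comparisons across populations without CD8+ EE replicate 3.

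The correlation of Jund over mice was -0.05 as Spearman's rho, -0.00385 in the 6 EE mice, and -0.18 without the 2 mice farthest from the median. Leaving out 1 mouse gave -0.42 to 0.27 for Jund and -0.21 to 0.26 for Egr1. The mean over the members ran from -0.33 as rho to 0.16 on raw log2 values.

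The count of genes differing between EE and SE in CD4+ T cells, 1 as reported, was 0 with the pseudocount 0.5, 0 where means had to be above 10, 3 without a filter, 2 with edgeR, 0 with all 21 samples in one fit and 0 with the replicate block, and 0 to 3 when 1 sample was left out. In CD8+ T cells it was 3 without a filter, 3 with the replicate block and 0 to 3 when 1 sample was left out, against 0. The genes between populations were 216 with a mean above 10, where fewer genes were tested, and 227 in EE and 105 in SE samples alone, where fewer samples were, against 349. The cause of the other changes in these counts was not tested. The differences of differences and the correlations over mice gave 0 under each alternative.

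Of 127 log2 differences of the other listed genes 121 kept their sign and call and 6 lost the call, each in a subset of samples. Fos, Jun and Dusp1 had at most 10 molecules in a sample. The standard errors in CD4+ T cells were 0.44 for Egr1 and 0.49 for Nr4a1, against 0.21 for Jund and 0.19 for Ier2, and the cause of the wider ones was not tested.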
